A study of Rattus norvegicus with 18 samples.

Results

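Cytosines of the mitochondrial genome (chrM of rn6) were taken from the reduced representation bisulfite sequencing (RRBS) of rat striata. Every chrM cytosine deposited as one of a CpG was kept, each strand apart, where a striatum had at least 10 reads on it. This gave 41 cytosines, 14 of the plus and 27 of the minus strand, of 1729867 cytosines kept in any striatum over the whole genome. Of these, 16 were kept in all 18 striata, 4 of the plus and 12 of the minus strand, of 294772 over the whole genome. The other 25 were kept in fewer striata, and 9 of them in 1 striatum only. A single striatum kept between 19 and 34.

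Both striata of 9 male juvenile Wistar rats were sequenced, 3 rats per treatment, so that each treatment had 3 control and 3 lesioned striata. All rats carried a 6-OHDA lesion of the left side, made in the medial forebrain bundle on postnatal day 21, and the striatum of the other side was the control. From postnatal day 35 to 49 they received 6 administrations and on postnatal day 53 a final one: saline in the UNT group, L-DOPA (6 mg/kg) together with benserazide (15 mg/kg) in the L-DOPA group, and both of these plus Riluzole (6 mg/kg) in the L-DOPA + R group. No rat without a lesion, and none with Riluzole alone, was part of the study.

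The mitochondrial genome is a small circular DNA that is present in many copies per cell, is not packed on nucleosomes and encodes subunits of the respiratory chain with the RNAs needed to translate them. 6-OHDA kills the dopamine neurons that project to the striatum, in part through damage to their mitochondria. Whether the DNA of mitochondria carries 5-methylcytosine has been debated, because a cytosine that escapes the bisulfite conversion is read as methylated. Each deposited table also holds cytosines of an RRBS spike-in named as unmethylated and of one named as methylated. The methylated calls of the unmethylated spike-in were taken here as the background of failed conversion. The reads of RRBS begin at a cut of the enzyme MspI, and the first cytosine of a CpG in a read belongs to the recognition site of the enzyme. The sequence and the gene annotation of chrM of rn6 were not used here, so that positions are given without the gene they lie in.

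The 41 cytosines lay in 8 stretches of chrM, separated by more than 300 bases and lettered here in the order of position. Stretch A was the single cytosine at 133. Stretch B (chrM:1784-1852) had 3 cytosines, stretch C (chrM:2467-2557) had 8 and stretch D (chrM:7498-7534) had 4. Stretch E (chrM:8685-8884) had 6 and stretch F (chrM:12761-12948) had 11. Stretch G was the single cytosine at 13826, and stretch H (chrM:15693-15745) had 7. A cytosine is called the first of the reads where no other cytosine of its strand, with at least 0.1 times its reads, lay up to 50 bases before it in reading direction, and later otherwise. Of the 16 cytosines kept in all striata, 7 were first and 9 were later ones.

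The depth was very unequal. Stretches E and F held 41.31% and 57.7% of the reads on the 41 cytosines, and 10 cytosines with a median of at least 5000 reads, 5 in each of these stretches, held between 98.14 and 99.47% of all chrM calls of a striatum. The deepest cytosine of every striatum, over the whole genome, was on chrM. The highest median depth was found at 12785 of the plus strand with 43796 reads, at 12801 of the plus strand with 43735 and at 12761 of the plus strand with 41616. Stretch E was read unequally from its ends, with a median of 7191 reads at 8685 of the plus strand and 32669 at 8884 of the minus strand. At the other end of the scale, 21 cytosines never reached 100 reads in a striatum. On these 21 together, 16 of 2034 reads were methylated, which is 0.787% (95% Wilson interval 0.485 to 1.27%). In the striata that kept them, no methylated read was seen at 15 cytosines with 808 reads in all, and a count of 0 still allows a level of 1.88% at the deepest of them (12859 of the minus strand, 160 reads) and of more at the others.

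**Figure D1:**
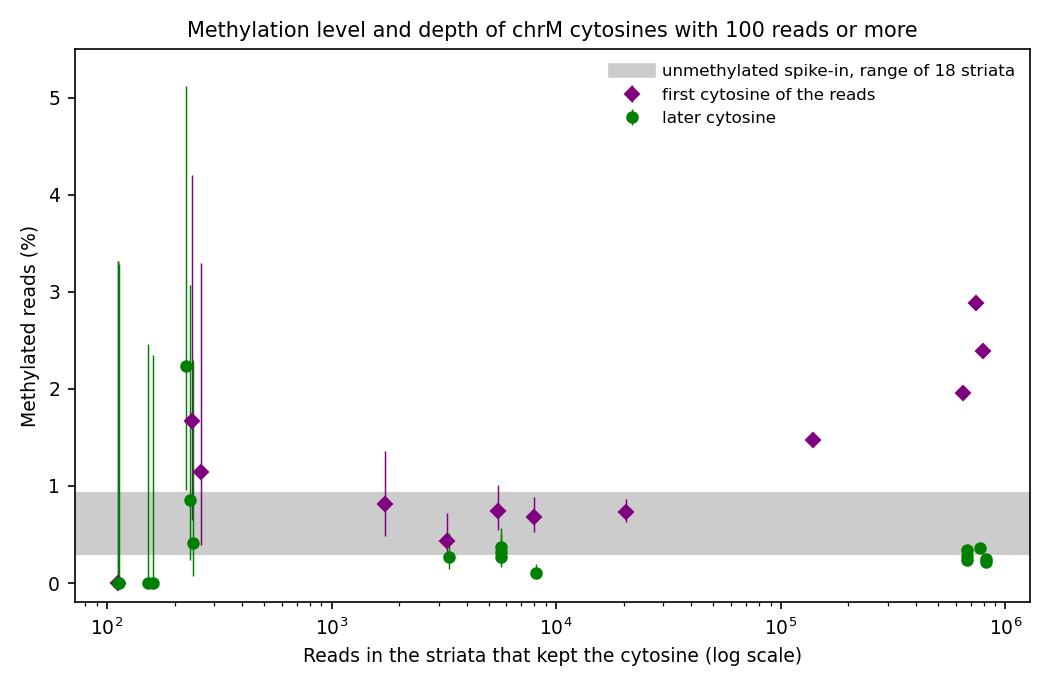
Percentage of methylated reads (vertical axis) against the number of reads, added up over the striata that kept the cytosine (log scale), for the 30 chrM cytosines with 100 reads or more. Bars are 95% Wilson intervals, diamonds are first and circles later cytosines of the reads, and the grey band is the range of the unmethylated spike-in over the 18 striata, 0.302 to 0.928%. The 4 first cytosines with the most reads stand above the band, while of the 6 later ones with the most reads 4 lie below it and 2, at 0.359 and 0.341%, just inside its lower end.

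The 16 cytosines kept in all striata had low levels of methylation, some above and some below the conversion background. Their mean level per striatum ran from 0.786 to 1.05% under saline (UNT), from 0.749 to 1.14% under L-DOPA and from 0.696 to 0.98% under L-DOPA + R. The unmethylated spike-in of the same striata was at 0.477 to 0.928% in UNT, 0.302 to 0.4704% under L-DOPA and 0.429 to 0.563% under L-DOPA + R, from 3897 to 19742 reads per striatum. The methylated spike-in was at 98.1 to 98.69% in all striata. The mean chrM level was higher than the spike-in of the same rat by 0.358 ± 0.0876 points (SD, n = 9 rats), in 9 of 9 rats (exact sign-flip permutation test over rats, two-sided, p = 0.003906, the smallest it can give, and 0.0297 after Benjamini-Hochberg adjustment over the 38 exact tests of mean levels and shares, which leaves out the exact tests of single cytosines). The median over the 16 cytosines was lower than the spike-in, by -0.108 points, so that the sign of this difference depends on the summary. Taken one by one, 4 of the 16 cytosines were above the spike-in in all 18 striata and 4 were below it in all 18. Over all cytosines of the genome, these shares were 62.6% and 4.59%. The 4 above were 8685 and 12761 of the plus and 8884 and 12876 of the minus strand, each of them a first cytosine.

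The place in the read divided these levels. The mean of the 7 first cytosines was 1.6 ± 0.153% (SD, n = 9 rats) and that of the 9 later ones 0.296 ± 0.0516%. In 9 of 9 rats the first cytosines were higher, by 1.31 ± 0.15 points (exact sign-flip permutation test, p = 0.003906, adjusted 0.0297). Set against the spike-in, the first cytosines were higher by 1.09 ± 0.0979 points in 9 of 9 rats, and the later ones differed by -0.214 ± 0.127 points and were lower in 9 of 9 rats (p = 0.003906 in both exact tests, adjusted 0.0297). The later cytosines thus gave no level above the conversion background in the mean of any rat. The division into first and later cytosines was made after the levels had been seen.

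**Figure D2:**
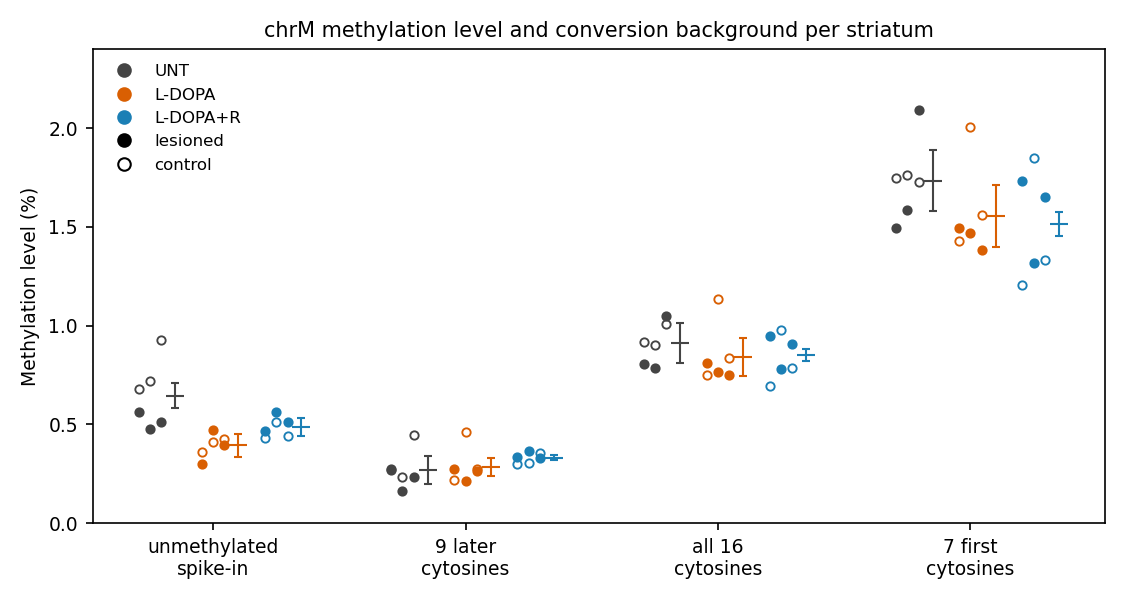
Level of the unmethylated spike-in and mean level of the 9 later, of all 16 and of the 7 first chrM cytosines kept in all striata (vertical axis, percent). Each point is a striatum, filled where lesioned and open where control, and bars show the mean ± SD over 3 rats of a treatment. The later cytosines lie between 0.162 and 0.461% and the first ones between 1.21 and 2.09%.

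The spike-in itself was not level along its length. Among its 32 cytosines with at least 100 reads, the share of methylated reads ran from 0.147 to 1.93% with a median of 0.479%, and it was 0.511% over all 151407 reads. The spike-in cytosine nearest the start of its plus strand had 12 methylated reads of 3418 (0.351%, 95% Wilson interval 0.201 to 0.613%). That of the minus strand had 5 of 634 (0.789%, interval 0.337 to 1.83%). The 4 deep first cytosines of chrM had 1.47 to 2.89% of their reads methylated, above both shares, and the lowest of them, 8685, lay within the interval of the second.

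In the order of their levels, the deep cytosines of the reads' start kept their places. The cytosine 12876 of the minus strand, inside stretch F, had the highest mean level of the deep cytosines (2.88% over 18 striata), followed by 12761 of the plus strand at the start of this stretch (2.38%). Then came 8884 of the minus strand (1.92%) and 8685 of the plus strand (1.45%), which are the ends of stretch E. Each of these was higher than the next in 18 of 18 striata, by 0.498, 0.461 and 0.468 points. The 6 deep later cytosines followed at 0.358% (12858, minus), 0.341% (8842, minus), 0.278% (8866, minus), 0.252% (12785, plus), 0.241% (8837, minus) and 0.218% (12801, plus). Among them, the neighbours were not kept apart in every rat, since the higher one was higher in 5 to 8 of 9 rats. The step from 8685 to 12858 was 1.09 points and held in 18 of 18 striata. These counts are a description of the order and were not tested.

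The less deep first cytosines of the 16 had lower levels. At 13826 of the minus strand, 150 of 20409 reads were methylated (0.735%, 95% Wilson interval 0.627 to 0.862%). At 2510 of the minus strand it was 0.744% of 5514 reads (0.549 to 1.01%), and at 8686 of the minus strand 0.814% of 1721 reads (0.485 to 1.36%). These shares lie inside the range of the spike-in over all 18 striata, of which the part above 0.563% came from UNT. Under L-DOPA, 13826 was at 0.56 to 1.04%, above the spike-in of every L-DOPA striatum (0.302 to 0.4704%). In UNT (0.39 to 1.13%) and L-DOPA + R (0.14 to 1.34%) its range overlapped with that of the spike-in. The later cytosines of stretch C, at 2467, 2478 and 2492 of the minus strand, had 0.37, 0.317 and 0.264% of between 5673 and 5680 reads methylated. In stretch B, which was not kept in every striatum, the first cytosine at 1784 of the plus strand had 0.68% of 7941 reads methylated and the later one at 1805 had 0.0982% of 8144 reads. The first was thus higher than the later ones also on the plus strand of stretch B and the minus strand of stretch C. The plus strand of stretch C had no methylated read at either. On the minus strand of stretch H the later 15731 (2.23% of 224 reads) was above the first, 15736 (1.67% of 240). On its plus strand the intervals of the first, 15735 (0.43%, 0.256 to 0.72%), and the later 15745 (0.27%, 0.142 to 0.512%) overlapped.

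The highest mean levels over striata belonged partly to cytosines with few reads. At 7534 of the minus strand, 1 of 24 reads in 2 striata was methylated. At 15736 of the minus strand it was 4 of 240 reads in 15 striata (1.67%, 95% Wilson interval 0.65 to 4.21%), with 15.38% as the highest single striatum. This cytosine and its neighbours 15731 and 15717 of the same strand had the largest SD between rats of a treatment, 3.8, 3.58 and 0.873 points. At their depth of 8 to 18 reads per striatum under L-DOPA and L-DOPA + R, 1 read changes the level by more than 5 points. The cytosine next to 12858 on the same strand, 12859, had no methylated read of 160, and a base next to the cytosine of a CpG on the same strand cannot itself start a CpG of the reference.

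The first question of the design is whether the lesion changed these levels. No chrM cytosine passed q under 0.01 between the lesioned and the control striata, with 0 of 21 tested in UNT, 0 of 20 under L-DOPA and 0 of 17 under L-DOPA + R (logistic model per cytosine with overdispersion correction and chi-square test, adjusted over all cytosines of the genome). Over the genome, 0.000247% of the cytosines were called in UNT and 0.0% in both drug groups. At an unadjusted p under 0.05 there were 0, 1 and 1 chrM cytosines, against 6.24, 5.36 and 6.13% of the genome. An F test also gave 0 at q under 0.01 in each treatment (0.0% of the genome), and so did a fit that takes the rat as a block (0.000247, 0.0 and 0.000479% of the genome). The smallest q of a chrM cytosine was 0.821 for UNT, 0.913 for L-DOPA and 0.813 for L-DOPA + R.

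The mean level of the 16 cytosines was 0.845% in the lesioned and 0.89% in the control striata, a difference of -0.0449 ± 0.185 points (SD, n = 9 rats, higher in 4 of 9, exact sign-flip permutation test, p = 0.492, adjusted 0.655). Within the treatments, the difference was -0.0622 ± 0.0877 points in UNT, -0.132 ± 0.22 points under L-DOPA and 0.0592 ± 0.231 points under L-DOPA + R, each over 3 rats. These did not differ between treatments beyond the spread of the rats, with p = 0.4 to 0.9 in exact permutation tests of 3 against 3 rats, which cannot go below 0.1. The mean of the 16 counts shallow cytosines as much as deep ones. At the deep first cytosines the difference between the sides was -0.0179 ± 0.115 points and at the deep later ones 0.00241 ± 0.0192 points, over 9 rats. Of the 16 cytosines, 1 was lower on the lesioned side in all 9 rats and none was higher in all 9. This was 8866 of the minus strand, a later cytosine of stretch E, with -0.0333 ± 0.0312 points (range -0.11 to -0.01). Over the genome, 0.108% of the cytosines were lower in all 9 rats and 0.0997% higher. It was named after its values were seen.

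The next question is whether the drugs changed the methylation of chrM in both striata of a rat. Between L-DOPA and UNT, 2 of 26 tested chrM cytosines had a q under 0.01, both lower in L-DOPA, where 0.134% of the cytosines of the genome were called (0.0861% lower, 0.0483% higher). For L-DOPA + R against UNT it was 4 of 23, 3 lower and 1 higher (0.183% of the genome, 0.14% lower and 0.0432% higher). For L-DOPA + R against L-DOPA alone it was also 4 of 23, 3 lower and 1 higher (0.0426% of the genome, 0.025% lower and 0.0177% higher). The lower ones were deep first cytosines of stretches E and F in each comparison, and the higher one was a later cytosine of stretch E. The called chrM cytosines had 24542 to 69172 reads per striatum, while the median of all kept cytosines was 15 to 23. Much smaller differences can be called at that depth, so the chrM counts and the genome shares are not at like depth. At an unadjusted p under 0.05 there were 3, 9 and 8 chrM cytosines, against 6.88, 8.75 and 6.89% of the genome. In this fit each striatum is a sample, although both striata of a rat are not independent. With the reads of both striata added up, 2, 3 and 4 chrM cytosines were called (0.117, 0.195 and 0.0308% of the genome). An F test called 0, 3 and 0 (0.0113, 0.00711 and 0.000324% of the genome), and on the added reads 0 in each comparison (0.0% of the genome). A block for the replicate number gave 2, 4 and 4 calls (0.197, 0.242 and 0.0823% of the genome). The control striata alone gave 1, 3 and 2 (0.0831, 0.113 and 0.0231% of the genome) and the lesioned striata alone 2, 3 and 3 (0.0784, 0.092 and 0.0223%).

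The cytosine 12876 of the minus strand had levels of 3.24, 3.35 and 3.49% as the lowest, median and highest of the 6 UNT striata. They were 2.76, 2.86 and 3.02% under L-DOPA and 2.30, 2.39 and 2.53% under L-DOPA + R. The 3 treatments did not overlap in any striatum, with UNT highest and L-DOPA + R lowest. Over rats the level was 3.36 ± 0.0782% in UNT, 2.87 ± 0.0458% under L-DOPA and 2.4 ± 0.0132% under L-DOPA + R (SD, n = 3 rats each). The difference was -0.478 points for L-DOPA against UNT (logistic model with chi-square test, q = 2.539e-17), -0.961 points for L-DOPA + R against UNT (q = 6.516e-72) and -0.483 points for L-DOPA + R against L-DOPA (q = 1.17e-16). With an F test the q was 0.0161, 0.000978 and 0.0603. An exact permutation test over the rats gave p = 0.1 for each, the smallest that 3 against 3 rats allow. The plus-strand cytosine of the same CpG was kept in 1 striatum only, with 12 reads and no methylated one.

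At 8884 of the minus strand the lowest, median and highest striata were 2.2, 2.32 and 2.38% in UNT, 1.77, 1.92 and 2.07% under L-DOPA and 1.4, 1.565 and 1.61% under L-DOPA + R. Again no striatum of one treatment lay within the range of another. The level over rats was 2.3 ± 0.0362, 1.92 ± 0.0501 and 1.53 ± 0.066%. The difference was -0.375 points for L-DOPA against UNT (chi-square test of the same model, q = 3.039e-10), -0.759 points for L-DOPA + R against UNT (q = 6.696e-63) and -0.384 points for L-DOPA + R against L-DOPA (q = 2.192e-09). With an F test the q was 0.0646, 0.000985 and 0.268. In the control striata alone, the first and the last of these differences were -0.367 and -0.341 points and were not called (q = 0.0453 and 0.0436).

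At 12761 of the plus strand, UNT and L-DOPA overlapped. The lowest, median and highest striata were 2.53, 2.62 and 2.69% in UNT, 2.31, 2.505 and 2.7% under L-DOPA and 1.91, 2.05 and 2.12% under L-DOPA + R. L-DOPA + R was lower than both, by -0.602 points against UNT (chi-square test, q = 1.923e-41) and by -0.481 points against L-DOPA (q = 1.824e-11). With an F test the q was 0.00292 and 0.164. The remaining deep first cytosine, 8685 of the plus strand, did not pass in any comparison. It had 1.54 ± 0.124% in UNT, 1.56 ± 0.16% under L-DOPA and 1.25 ± 0.0944% under L-DOPA + R (SD, n = 3 rats), and the rats of L-DOPA + R lay below those of both other groups while single striata overlapped.

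The one cytosine that was higher in L-DOPA + R was 8866 of the minus strand. Its striata had 0.19, 0.255 and 0.29% in UNT (lowest, median and highest), 0.2, 0.235 and 0.32% under L-DOPA and 0.32, 0.34 and 0.38% under L-DOPA + R. The difference was 0.0954 points against UNT (chi-square test, q = 8.381e-05) and 0.101 points against L-DOPA (q = 0.00516). L-DOPA + R did not overlap with UNT, and its lowest striatum equalled the highest of L-DOPA. With an F test the q was 0.424 and 0.924, and with the rat as the unit 0.0321 and 0.00367. Neither side alone gave a call, with a q of 0.0672 (control) and 0.0884 (lesioned) against UNT and of 0.52 and 0.0149 against L-DOPA. Without L-DOPA + R rat 2 the call against UNT was lost (q = 0.0126, difference 0.0941 points). The call against L-DOPA was lost without L-DOPA rat 1 (q = 0.14), L-DOPA rat 3 (0.0218) and L-DOPA + R rat 1 (0.0671), rat 2 (0.113) or rat 3 (0.0513).

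**Figure D3:**
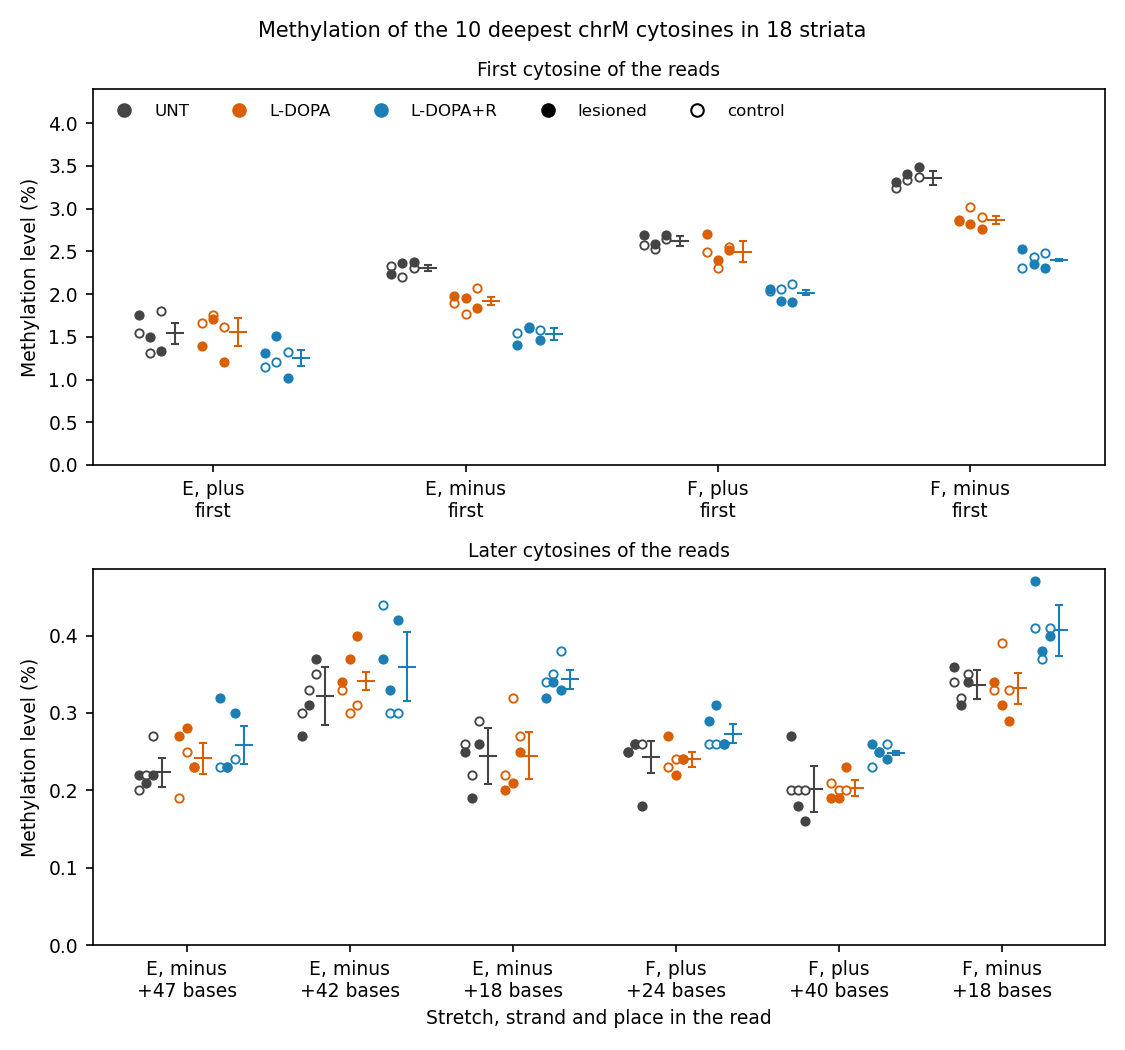
Methylation level (vertical axis, percent) of the 10 deep chrM cytosines, the 4 first ones above and the 6 later ones below, named by stretch, strand and number of bases past the first cytosine. Each point is a striatum, filled where lesioned and open where control, and bars show the mean ± SD over 3 rats. At the first cytosines of the minus strand of stretches E and F the treatments lie apart in the order UNT, L-DOPA, L-DOPA + R, while the later ones lie between 0.16 and 0.47%.

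Among all 16 cytosines, 2 had every striatum of L-DOPA below every striatum of UNT and none had them above, where 0.265% and 0.125% of the genome did. Between L-DOPA + R and UNT, 3 were below (0.485% of the genome) and 2 above (0.112%). For L-DOPA + R against L-DOPA, 3 were below (0.185% of the genome) and none above (0.0729%). The 3 below were 12761, 8884 and 12876, and the 2 above were the later cytosines 8866 and 12858 of the minus strand. All of these are deep cytosines with far more reads than most of the genome, so that these shares too are not at like depth. At 12858 the level over rats was 0.337 ± 0.0189% in UNT, 0.332 ± 0.0202% under L-DOPA and 0.407 ± 0.0325% under L-DOPA + R, and its q was 0.0241 against UNT and 0.0644 against L-DOPA. Of the 24, 19 and 19 chrM cytosines that were tested and not called, 1, 5 and 4 had an unadjusted p under 0.05, beside 6.88, 8.75 and 6.89% of all tested cytosines of the genome.

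The deep first and the deep later cytosines were also averaged as groups. The 4 deep first cytosines had a mean of 2.46 ± 0.0495% in UNT, 2.21 ± 0.0232% under L-DOPA and 1.8 ± 0.0309% under L-DOPA + R (SD, n = 3 rats each). The 6 deep later ones had 0.262 ± 0.0102, 0.267 ± 0.00672 and 0.315 ± 0.0142%. The first cytosines differed by -0.246 points between L-DOPA and UNT, by -0.655 points for L-DOPA + R against UNT and by -0.409 points for L-DOPA + R against L-DOPA. The later ones differed by 0.00528, 0.0531 and 0.0478 points. The rats of the groups did not overlap in any of these but the later cytosines of L-DOPA and UNT. Exact permutation tests gave p = 0.1 (adjusted 0.211), the smallest for 3 against 3 rats, and 0.6 for that exception. At 8884 the first cytosine was 8.81 ± 0.695 times as high as the mean of the 3 later ones of the same reads in UNT, 6.97 ± 0.522 times under L-DOPA and 4.82 ± 0.532 times under L-DOPA + R (SD, n = 3 rats each). At 12876 the ratio to its later cytosine had medians over striata of 9.95, 8.71 and 5.91. At 12761 the medians were 11.5 in both UNT and L-DOPA, which overlapped, and 7.86 under L-DOPA + R.

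The mean over all 16 cytosines was 0.911 ± 0.101% in UNT, 0.842 ± 0.095% under L-DOPA and 0.85 ± 0.0304% under L-DOPA + R (SD, n = 3 rats each). The differences were -0.0695, -0.0615 and 0.00802 points, with p = 0.5, 0.5 and 1.0 in exact permutation tests. This mean counts every cytosine alike, also 8686 of the minus strand with 25 to 52 reads per striatum under L-DOPA and 28 to 82 under L-DOPA + R. With the reads of the 16 cytosines added up, so that the deep ones count most, the differences were -0.149, -0.209 and -0.0592 points (p = 0.1 in each exact permutation test, the smallest for 3 against 3 rats). The unmethylated spike-in also differed, with 0.646 ± 0.0651% in UNT, 0.395 ± 0.0569% under L-DOPA and 0.487 ± 0.0459% under L-DOPA + R, and the rats of no pair of treatments overlapped (exact permutation p = 0.1, adjusted 0.211). After subtracting the spike-in of the same striatum, the chrM level was higher in L-DOPA than in UNT by 0.182 points and in L-DOPA + R than in UNT by 0.0974 points.

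The same measure was taken at nuclear DNA. On the autosomes, 5464 first cytosines had at least 2 later ones within 45 bases and all of those at 1% or less over all striata together. The reads of these first cytosines were methylated at 3.43 ± 0.00511% in UNT, 3.31 ± 0.00189% under L-DOPA and 3.01 ± 0.0548% under L-DOPA + R (SD, n = 3 rats each). Their 16690 later cytosines, which were selected for low levels, were at 0.303 ± 0.00682, 0.323 ± 0.00549 and 0.342 ± 0.00673%. First cytosines of nuclear DNA with unmethylated followers were thus above the spike-in as well. Their levels had the order of treatments seen in the mean of the deep first chrM cytosines (2.46, 2.21 and 1.8%). This order did not hold at every first cytosine of chrM, with 8685 of the plus strand at 1.54, 1.56 and 1.25%. Later cytosines were highest under L-DOPA + R at nuclear DNA and in the mean of the deep later chrM cytosines. The latter overlapped between UNT and L-DOPA (0.262 and 0.267%), while the nuclear ones were higher under L-DOPA than in UNT. The part of the nuclear differences in the chrM differences was not tested. Treatment and anything that differed between the libraries of the treatments cannot be told apart in this design.

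**Figure D4:**
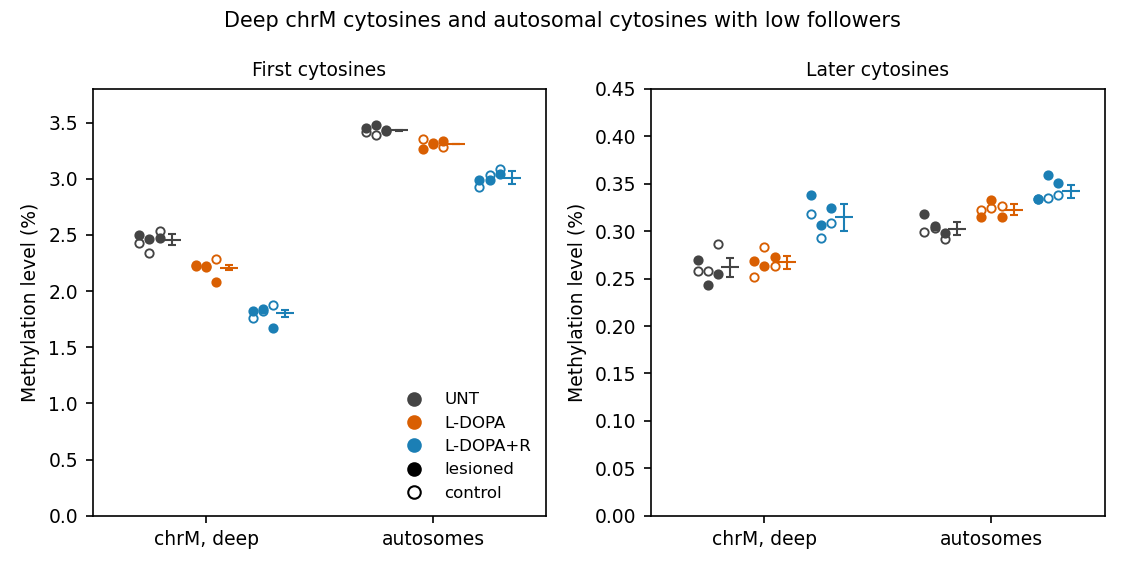
Mean level of the 4 first (left) and 6 later (right) deep chrM cytosines beside the level of 5464 autosomal first cytosines and their 16690 later ones (vertical axes, percent, with different scales). Each point is a striatum, filled where lesioned and open where control, and bars show the mean ± SD over 3 rats. UNT is highest and L-DOPA + R lowest at first cytosines of both kinds of DNA, and L-DOPA + R is highest at later ones.

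The strands were compared as well. Over the 16 cytosines, the minus strand was lower than the plus strand by -0.276 ± 0.146 points, in 9 of 9 rats (exact sign-flip permutation test, p = 0.003906, adjusted 0.0297). Of the plus strand 2 of 4 cytosines and of the minus strand 5 of 12 were first ones. Among first cytosines alone the minus strand was lower, by -0.436 points, and among later ones alone it was higher, by 0.0781 points. With the reads of the 16 cytosines added up it was higher, by 0.0408 points, so that the direction depends on the summary. At the deep first cytosines the minus strand was higher in stretch E (1.92 against 1.45%) and in stretch F (2.88 against 2.38%).

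The share of calls on chrM depends in part on how much mitochondrial DNA a sample held. Of 18471279 to 49113957 calls per striatum, a share of 1.0 to 1.31% was on chrM in UNT, of 1.258 to 1.795% under L-DOPA and of 1.083 to 2.556% under L-DOPA + R. Over rats the share was 1.13 ± 0.0746, 1.5 ± 0.222 and 1.59 ± 0.375% (SD, n = 3 rats each). The rats of UNT lay below those of both drug groups, by 0.37 points against L-DOPA and 0.469 points against L-DOPA + R (exact permutation test, p = 0.1 for each, the smallest possible, adjusted 0.211). With the share taken among cytosines of at least 10 reads, these differences were 0.749 and 0.816 points. Without L-DOPA + R rat 1 the second was 0.255 points. The 2 drug groups overlapped (exact permutation test, p = 0.8). UNT also had more calls per striatum, at least 30288745, than 11 of the 12 striata of the drug groups. The lesioned side was lower than the control side by -0.232 ± 0.368 points, in 6 of 9 rats (exact sign-flip permutation test, p = 0.0664, adjusted 0.211). In UNT it was lower in 3 of 3 rats, with -0.17 ± 0.0379 points. In L-DOPA the difference was -0.0293 ± 0.225 points, and in L-DOPA + R -0.496 ± 0.565 points. The control striatum of L-DOPA + R rat 1 had the highest share of all. More copies of mitochondrial DNA per cell, a larger part of cells rich in them and a difference between the libraries of the treatments cannot be told apart in this design. The depth did not change alike along chrM, as the next paragraphs give.

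Most of the reads behind this share lay in stretches E and F. The depth is given here as RPM, the reads per 1000000 calls of the striatum. The RPM at 12785 of the plus strand had medians of 1255 in UNT, 1920 under L-DOPA and 1829 under L-DOPA + R. At 12876 of the minus strand they were 1255, 1379 and 1756. At 2 less deep cytosines the drug groups had a lower median. At 13826 of the minus strand the median was 50.2 in UNT, 25.07 under L-DOPA and 32.58 under L-DOPA + R, without overlap between L-DOPA and UNT. At 8686 of the minus strand it was 5.605, 1.516 and 1.531, without overlap between UNT and either drug group. In stretch C, the median at 2510 of the minus strand was 10.82, 12.34 and 9.215, and the treatments overlapped.

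The plus strand of stretches B and H was nearly missing under L-DOPA + R. At 1784 of the plus strand the number of reads was 575 to 935 in UNT and 366 to 667 in L-DOPA, but 9 to 34 in L-DOPA + R, and 1805 of the plus strand had 578 to 941, 400 to 702 and 9 to 33. The median RPM of 1784 was 26.5-fold lower in L-DOPA + R than in UNT and 26.7-fold lower than in L-DOPA. At 15735 of the plus strand there were 359 to 502 reads in UNT, 74 to 147 under L-DOPA and 2 to 8 under L-DOPA + R. At 15745 of the plus strand there were 365 to 503, 78 to 162 and 1 to 9. In RPM, 15735 was 79.7-fold lower in L-DOPA + R than in UNT and 2.6-fold lower in L-DOPA than in UNT. The groups did not overlap in any of these differences. Because cytosines were kept by their number of reads, those of stretch H through UNT and L-DOPA only, the depths here are a description and no test of them is given. These 4 of the 21 chrM cytosines kept in all UNT striata, which were thus chosen for their reads in UNT, were at least 5-fold lower without overlap in L-DOPA + R than in UNT, which 1.22% of such cytosines of the genome were, and 4 of 20 against L-DOPA, where it was 0.168%. In L-DOPA against UNT, 4 of 21 were lower without overlap (4.15% of the genome) and none by 5-fold or more (1.31%). The minus strand of stretch H did not share in this, with a median of 22 reads at 15736 in UNT and 11 in L-DOPA + R, which is an RPM of 0.538 and 0.481.

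**Figure D5:**
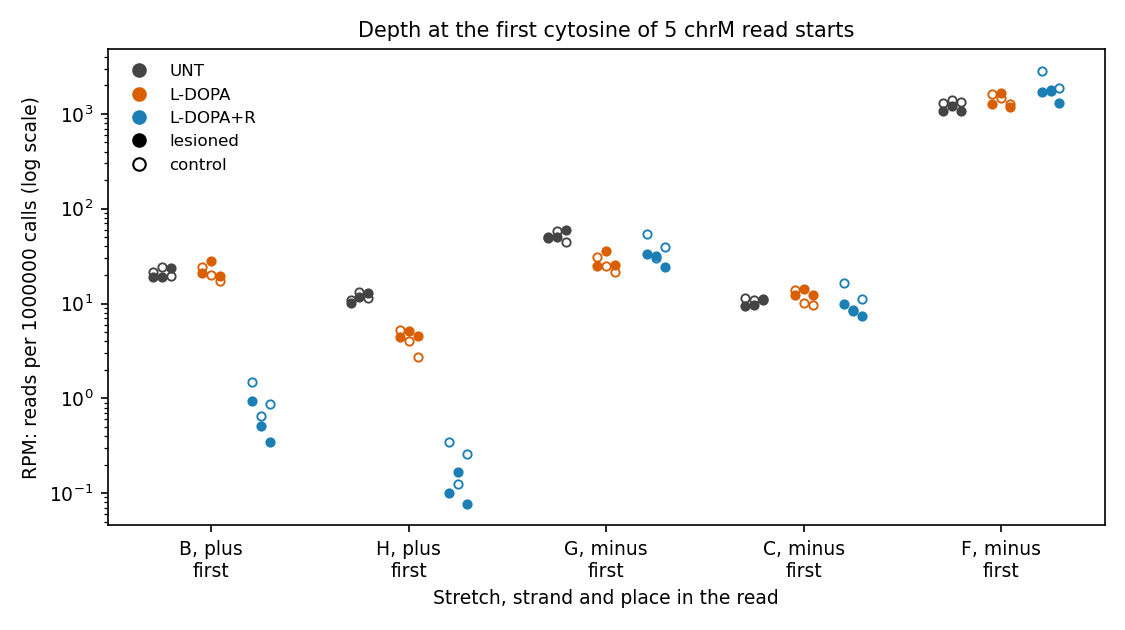
RPM, the reads per 1000000 calls (vertical axis, log scale) at the first cytosine of 5 read starts on chrM, named by stretch and strand. Each point is a striatum, filled where lesioned and open where control. Stretches B and H of the plus strand fall in L-DOPA + R to median RPM of 0.768 and 0.146, while stretch F is at 1075 or more in all striata.

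At these cytosines few reads were left to compare the level with L-DOPA + R. Stretch H of the plus strand was not kept in any striatum of L-DOPA + R, and stretch B in 5 of 6, with no methylated read. At 1784 the fit gave a difference of -0.732 points against UNT (chi-square test, q = 0.794) and of -0.621 points against L-DOPA (q = 0.838), and at 1805 of -0.083 and -0.124 points (q = 1.0 for both). In UNT and L-DOPA, the first cytosine at 1784 was at 0.35 to 1.44% and at 0.27 to 1.05%, and the later one at 1805 at 0 to 0.25% in both. Whether the fall in depth comes with the treatment or with the preparation of the libraries cannot be told apart.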

How the data were processed

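Both striata of 9 rats were analysed by RRBS. The authors trimmed the reads with Trim Galore 0.4.0 and mapped them with Bismark to rn6, which the submitters' processing notes list as version 014.3. For every CpG cytosine, the authors deposited the coverage, a count of reads from 1 on and not normalized, with strands apart. The percent of reads with a C was deposited with 2 decimals, so that methylated reads, rebuilt here from coverage and percent, are known to within about 0.01 points of the depth. Reads were amplified and carry no molecular identifiers, so that intervals cover the counting error only. Fragments of the mitochondrial genome that also occur in nuclear DNA were not separated.

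Python 3.11.15 with numpy 2.4.6, pandas 2.3.3, scipy 1.17.1 and matplotlib 3.10.9 was used. A cytosine was kept in a striatum from 10 reads on. As in the study's design, methylation was fitted with a logistic model corrected for overdispersion and tested by chi-square, here at every cytosine of the genome kept in 4 or more of 6 striata per treatment, or in all 6 for the sides, with Benjamini-Hochberg q under 0.01. The fit was also run on simulated data, and the outcome is not given here. Levels were compared with exact permutation tests over rats, two-sided. The series holds both striata of each rat. That striata of a treatment with one replicate number come from one rat was taken from the numbering and is not stated in the sources used here. All tests over rats rest on it. The deviations of their levels from the group means correlated across 294772 cytosines with a mean r of 0.0601 (0.0327 to 0.107). Between treatments, a number stands for different rats.

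Cytosines were named by a rule: those with q under 0.01, the 5 highest and 5 lowest levels, the 3 largest SD between rats and the 3 deepest, beside a CpG of stretch F known from earlier results. The 5 lowest tie with others at 0 and are given as a count. Members and lists were chosen with earlier results of these data known. Levels by gene class were not analysed here, since the annotation of chrM was not used. No column of another sample was in the files (0 columns). Alternatives were a minimum of 20 reads, strands added up, other tests and units, a coverage limit, left-out rats, a replicate block and other summaries of the level.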

Additional observations from a re-analysis of the deposited data

Results flagged for a closer look

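Within the 6 striata of a treatment, 8 values stood apart from the others among 57 groups tested with Dixon's criterion, where chance alone gives about 1 in 20. In the control striatum of L-DOPA rat 2, the mean level of the 16 chrM cytosines was 1.137% and the next highest of the group 0.837%. The same striatum had 4.0% at 8686 of the minus strand, where the other 5 were at 0, and 1.46% at 2478 of the minus strand, where the next was 0.36%. It had the fewest calls of all striata (18471279), with 25 to 52 reads per L-DOPA striatum at 8686. In the control striatum of L-DOPA + R rat 1, the share of calls on chrM was 2.556% and the next highest 1.568%.

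In UNT, the control striatum of rat 3 had 1.26% at 2478 of the minus strand (next 0.43%) and 0.27% at 8837 of the minus strand (next 0.22%). The lesioned striatum of UNT rat 3 had the lowest level at 12785 of the plus strand with 0.18% (next 0.25%). The lesioned striatum of UNT rat 1 had the highest level at 12801 of the plus strand with 0.27% (next 0.2%). The unmethylated spike-in was lower on the lesioned side in all 3 UNT rats (mean -0.259 points) and higher in all 3 L-DOPA + R rats (0.0516 points), a difference of 0.3102 points that was not tested.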

How the results depend on the processing

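Calls at q under 0.01 on chrM depended on the test. With the F test, 0, 3 and 0 cytosines remained for L-DOPA against UNT, L-DOPA + R against UNT and L-DOPA + R against L-DOPA (0.0113, 0.00711 and 0.000324% of the genome). With the rat as the unit and an F test it was 0, 0 and 0 (0.0% of the genome each). A limit on coverage, at 122 to 246 reads per striatum, leaves 6, 5 and 6 cytosines to test and gave 0 calls each (0.131, 0.177 and 0.0404% of the genome). Every called cytosine had at least 24542 reads and was removed by this limit, so that the 0 was fixed beforehand and says nothing about the calls. With control striata alone, 1, 3 and 2 were called (0.0831, 0.113 and 0.0231% of the genome). Left-out rats gave 2 to 2 calls (0.102 to 0.18% of the genome), 3 to 4 (0.121 to 0.225%) and 3 to 4 (0.0352 to 0.0765%), and between the sides 0 to 0 (at most 0.00111%). A replicate block changed no count of calls on chrM. It gave 2, 4 and 4 (0.197, 0.242 and 0.0823% of the genome), and 0 between the sides (at most 0.000479%). Between the sides the block pairs striata of one replicate number, while between treatments it joins different rats under one number. The cause of these changes was not tested beyond the fewer cytosines tested.

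The level changed sign with its summary. L-DOPA against UNT gave 0.159 points with every cytosine kept in a striatum, 0.182 minus the spike-in and 0.0152 with later cytosines (left-out rats -0.124 to -0.0114), while the difference was larger with reads added up (-0.149) and with first cytosines (-0.178). L-DOPA + R against UNT gave 0.215, 0.06 with the median, 0.0974 minus the spike-in and 0.062 with later cytosines (-0.0951 to -0.00339), against -0.209 with reads added up and -0.22 with first cytosines. L-DOPA + R against L-DOPA gave -0.0592 with reads added up, -0.085 minus the spike-in and -0.0419 with first cytosines (-0.0231 to 0.0627). Lesioned against control gave 0.00317 with every cytosine and 0.0276 minus the spike-in (-0.0818 to -0.00406). Against the spike-in, the median gave -0.108 and later cytosines -0.214 (0.339 to 0.373). The minus strand against the plus strand gave 0.218 with every cytosine, 0.0408 with reads added up and 0.0781 with later cytosines. The side difference of L-DOPA against UNT gave 0.371 with every cytosine and 0.1 with the median (-0.166 to 0.0502), that of L-DOPA + R against UNT -0.127 and, with reads added up, -0.00856 (0.0258 to 0.25), and that of L-DOPA + R against L-DOPA -0.498 (0.071 to 0.319).

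The share of calls was lower on the lesioned side past p = 0.05 on the log2 scale (-0.222, p = 0.0391 in the exact test) and without L-DOPA rat 2 (-0.281, p = 0.0312). Left-out rats gave -0.281 to -0.127 there and -0.114 to 0.234 for L-DOPA + R against L-DOPA, where the lowest value came without the rat with the highest share. Restricting to first or later cytosines and the F test with the rat as the unit were chosen after seeing the data. The control region and the classes of genes were not run. Each of the 10 calls of a single cytosine lost the threshold with the rat as the unit and an F test. Over the alternatives run for single cytosines, which leave out the coverage limit and strands added up, the threshold was lost 30 times and kept 130 times, with no change of direction.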
